A study of Mus musculus with 20 samples.

Results

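The axon guidance genes described here are the secreted and membrane-bound cues of 4 classic guidance systems and the receptors that read them. They were chosen by symbol: semaphorins of classes 3 to 7, class A to D plexins, both neuropilins, ephrins, Eph receptors, Slit ligands, Robo receptors, netrins, and the netrin receptors Dcc and Unc5a to Unc5d. The rule found 71 of the 23260 genes in the table. They comprise 20 semaphorins, 2 neuropilins, 9 plexins, 8 ephrins, 14 Eph receptors, 3 Slits, 4 Robos, 3 netrins, 5 netrin receptors and 3 antisense RNAs of Plxna4, so that 68 are protein-coding.

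Guidance cues steer growing axons and dendrites by attraction or repulsion. Semaphorins act through plexins, and most secreted class 3 semaphorins also need a neuropilin as the binding subunit, while Sema3e can bind Plxnd1 directly. Ephrins are anchored to the surface of 1 cell and bind Eph receptors on a neighbour, and signalling can run into both cells. Slits are secreted repellents read by Robo receptors, and netrins attract through Dcc and repel through Unc5 receptors. In the retina these systems are known for guiding ganglion cell axons to the optic nerve and along the visual pathway, and for sorting amacrine and bipolar processes into layers of the inner plexiform layer.

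The cells came from cultured explants of wildtype CD1 mouse retina given as postnatal day 2 (P2) or postnatal day 5 (P5), in 20 single-cell libraries. Explants received a GFP control plasmid, MEIS1, MEIS2, or both constructs together (combination), and GFP-positive cells were isolated, so all groups share electroporation, culture and the sort. Each age has 4 control, 2 MEIS1, 2 MEIS2 and 2 combination libraries. The constructs are named as pCAGIG plasmids in the series' design text, and nothing in the labels ties a library to an animal or says whether explants were pooled, so p-values measure only the spread between these libraries, which may be technical. That text names NR2F1 and NR2F2 in place of MEIS1 and MEIS2, and gives 2 or 5 days of treatment where the sample labels give an age.

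The table held 79009 cells, from 1625 to 17739 per library, and libraries held from 2376875 to 141540352 unique molecular identifiers (UMIs, one per captured transcript). The median UMIs per cell ranged from 992 in P2 MEIS2 library 2 to 14199 in P2 MEIS2 library 1. Meis1 was at 2099 to 2630 CPM (the gene's UMIs over all UMIs of that library and cell type, scaled to 1000000) in progenitors of the P2 MEIS1 libraries and at 164 to 354 CPM in the P2 controls, and Meis2 was at 861 to 1830 CPM in the P2 MEIS2 libraries and at 95.04 to 197 CPM in those controls. The treatment tag gives MEIS1 for every single-construct library of P2 and MEIS2 for every one of P5, while the titles name both constructs at each age, and the titles were followed. At P5 Meis1 was at 3137 to 3750.2 CPM in the libraries titled MEIS1 and 184 to 207 CPM in controls, and Meis2 was at 848 to 971 CPM in those titled MEIS2, 45.7 to 66.2 CPM in those titled MEIS1 and 34.6 to 50.1 CPM in controls. The barcode start equalled the title in 10 libraries only. In P2 control 1 every barcode prefix names a combination sample, and in P2 combination 2 it names a control. In the remaining mismatches the group was the same and the number differed. P2 combination 1 carried combination 2, and P2 controls 2, 3 and 4 carried controls 4, 5 and 6. P5 controls 1, 2, 3 and 4 carried controls 2, 3, 4 and 5. Sample labels were followed. In progenitors Meis1 and Meis2 were at 887 and 913 CPM in P2 combination 2 and at 354 and 197 CPM in P2 control 1, the order the sample labels give, and P2 control 1 was the highest of the 4 controls for both genes. The first P5 library of each group had a median mitochondrial share of 6.93% to 10.6%, against 3.36% to 5.11% in the other P5 libraries. These 4, the 2 whose barcode starts name another group and the shallow P2 MEIS2 library 2 are called the 7 libraries in doubt. Counts that moved by over 1.5 times without them are given with both values. In all, 744 barcodes occurred in more than 1 library, at most 0.876% of the smaller library of a pair. The authors named 9 cell types: 11818 progenitors, 9239 neurogenic cells, 38650 rods, 842 cones, 13556 amacrine cells and 98 more called starburst, 4530 bipolar cells, 55 horizontal cells and 221 Müller glia. The types were named from these same cells, so differences between types also describe that naming. Summed amacrine markers (7 genes such as Tfap2a and Gad1) were at 1997 to 2799.6 CPM in P2 control amacrine cells and 71.98 to 208 CPM in P2 control rods. Over all controls, 6 cone markers summed to 4538 CPM in cones and 1506 CPM in rods, 8 bipolar markers to 3971 CPM in bipolar cells and 1451 CPM in rods, and 6 starburst markers to 2774 CPM in starburst cells and 17.9 CPM in other amacrine cells. The 7 neurogenic markers were at 1282 to 2941 CPM in P2 neurogenic cells and 755 to 1454 CPM in P2 rods. Of the rod markers, Nrl, Nr2e3, Crx, Sag and Pde6g summed to 1303 to 3014 CPM in P2 rods and 2912 to 4083 CPM in P2 cones, where the ranges overlapped and the cone range lay higher, and to 5919 to 9675 CPM in P5 rods and 313 to 654 CPM in P5 bipolar cells. Of the progenitor markers, Sox2, Hes1, Hes5, Ccnd1, Fgf15, Sfrp2 and Top2a summed to 2588 CPM in progenitors of all controls, 1119 CPM in neurogenic cells and 57.2 CPM in rods.

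Total UMIs over all cells ranged from 3 for Ntn5 and 57 for Robo4 to 686495 for Robo2 and 759024 for Epha5. In sums of UMIs per control library and cell type, 63 of the 68 coding genes passed the filter on low counts; Ntn1, Ntn5, Robo4, Sema3b and Sema3g did not. Netrins were therefore represented by Ntn4 alone, while all 5 of their receptors were measured. Of the antisense RNAs only Plxna4os3 passed. The 3′ libraries do not allow levels to be compared between genes, so all levels below compare 1 gene across cells.

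At P2, amacrine cells had the highest mean of 31 of the 63 genes (49.2%), against 23% of all 15562 genes tested. Progenitors were highest for 15 (22.2% of all genes), cones for 8 (29.9%), rods for 5 (16.3%) and neurogenic cells for 4 (8.57%). At P5, amacrine cells were highest for 30 (47.6%, against 24.9% of all genes), progenitors for 15 (22.3% of all genes), bipolar cells for 7 (13.3%), rods for 6 (31.1%) and neurogenic cells for 5 (8.52%). All 4 libraries of the highest type lay above all 4 of the next type for 12 genes in P2 amacrine cells (4.94% of all genes did so there) and for 7 in P2 progenitors (5.6% of all genes). At P5 this held for 6 in amacrine cells (3.57% of all genes), 8 in progenitors (7.09%) and 2 in bipolar cells (1.93%), Epha7 and Epha3. The progenitor genes of that kind at both ages were the ephrin Efna1, the receptors Plxnd1, Nrp1 and Ephb1, and the semaphorins Sema4d and Sema5a.

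**Figure D1:**
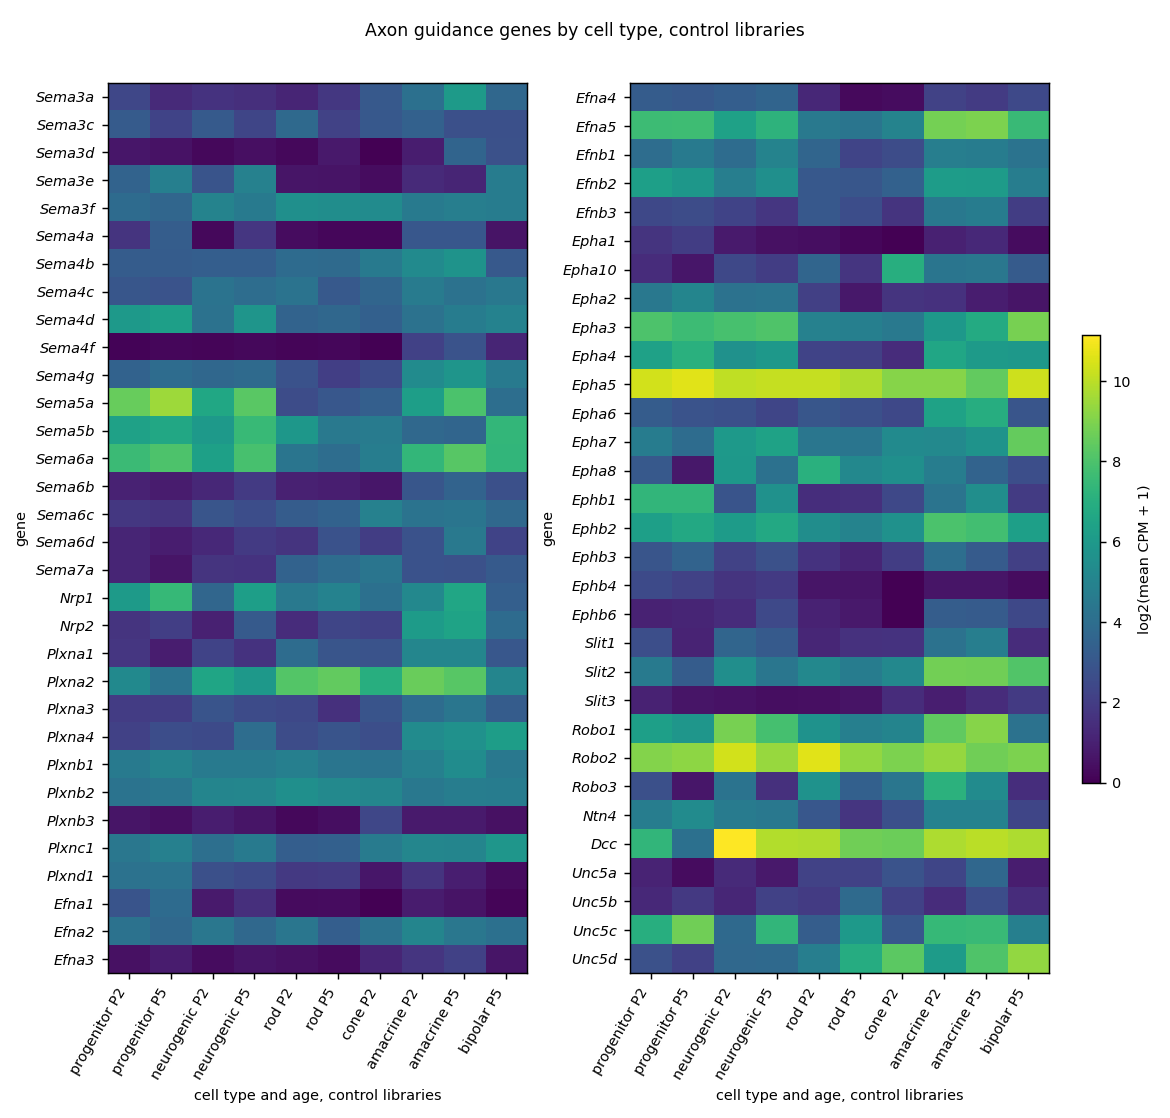
Mean level of the 63 axon guidance genes that passed the filter (vertical axis) in each cell type and age of the control libraries (horizontal axis), as log2(mean CPM + 1), with 4 libraries per column. Amacrine columns are brightest for 31 genes at P2 and 30 at P5, and progenitor columns for 15 at each age.

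Neurogenic cells, the committed precursors between cycling progenitors and young neurons, differed from progenitors in 30 of the 63 genes at P2 and 33 at P5. At P2, 13 of the 63 genes were higher and 17 lower in neurogenic cells than in progenitors (edgeR quasi-likelihood test, Benjamini-Hochberg adjusted p under 0.05; 15.3% of all genes higher and 18.8% lower, 34.1% called in all). At P5, 16 were higher and 17 lower (17.2% of all genes higher and 20.7% lower, 37.9% called in all). The genes' median log2 difference was -0.14 at P2 and -0.03 at P5. None of the 8 ephrins was higher in P2 neurogenic cells, and 3 were lower, while all 3 measured Robo receptors were higher.

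Dcc, the attractive netrin receptor, had the largest rise along this step. It was at 307, 119, 117 and 88.6 CPM in progenitors of P2 controls 1 to 4 and at 3969.6, 2078, 1313 and 1659.5 CPM in their neurogenic cells. Control 1 was highest in both types, and every neurogenic value lay above every progenitor value (log2 difference 3.83 ± 0.28 (SE), adjusted p = 1.11e-11). At P5 progenitors had 18.2, 7.77, 31.2 and 7.17 CPM and neurogenic cells 1215, 457, 929.7 and 1122 CPM (log2 difference 5.79 ± 0.31 (SE), adjusted p = 9.5e-15), and control 2 was lowest among the neurogenic sums.

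Robo1, a receptor for Slit repellents, was at 124, 78.8, 55.97 and 50.2 CPM in P2 progenitors and 726, 511, 244 and 354 CPM in neurogenic cells. The 2 types did not overlap, and control 1 was highest in each (log2 difference 2.50 ± 0.43 (SE), adjusted p = 2.72e-05). The Eph receptors Epha8 (2.89, adjusted p = 3.11e-09) and Epha7 (1.36, adjusted p = 5.96e-06) and the Robo family member Robo3 (1.73, adjusted p = 0.00359) were also higher at P2, as log2 differences. At P5 Epha8 (4.13), Epha7 (2.29) and Robo1 (1.93) were higher too, and Robo3 did not pass the test there (log2 difference 1.72, adjusted p = 0.165).

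Ephb1, a receptor for class B ephrins, had the largest difference in the other direction at P2. Progenitors held 184, 116, 74.6 and 269 CPM and neurogenic cells 7.69, 1.99, 3.996 and 11.6 CPM in P2 controls 1 to 4. All progenitor values were far above all neurogenic values (log2 difference -4.63 ± 0.52 (SE), adjusted p = 3.25e-08).

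Unc5c, a repulsive netrin receptor, was at 181, 134, 67.5 and 124 CPM in P2 progenitors and 18.2, 17.5, 8.79 and 7.47 CPM in neurogenic cells. Nrp1, the neuropilin that binds Sema3a, was at 97.03, 52.6, 46.3 and 67.4 CPM in progenitors and 21.1, 7.95, 8.39 and 9.004 CPM in neurogenic cells. Neither gene overlapped between the types (log2 differences -3.45 with adjusted p = 1.38e-08 and -2.55 with adjusted p = 3.33e-10). Sema5a, a transmembrane semaphorin with thrombospondin repeats, was at 577, 341, 206 and 368 CPM in progenitors and 133, 89.8, 61.9 and 114 CPM in neurogenic cells (log2 difference -1.91 ± 0.28 (SE), adjusted p = 3.01e-06). Sema4d, the ligand of Plxnb1, and the ephrin Efnb2 were lower in neurogenic cells as well, by log2 differences of -1.86 and -1.59.

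**Figure D2:**
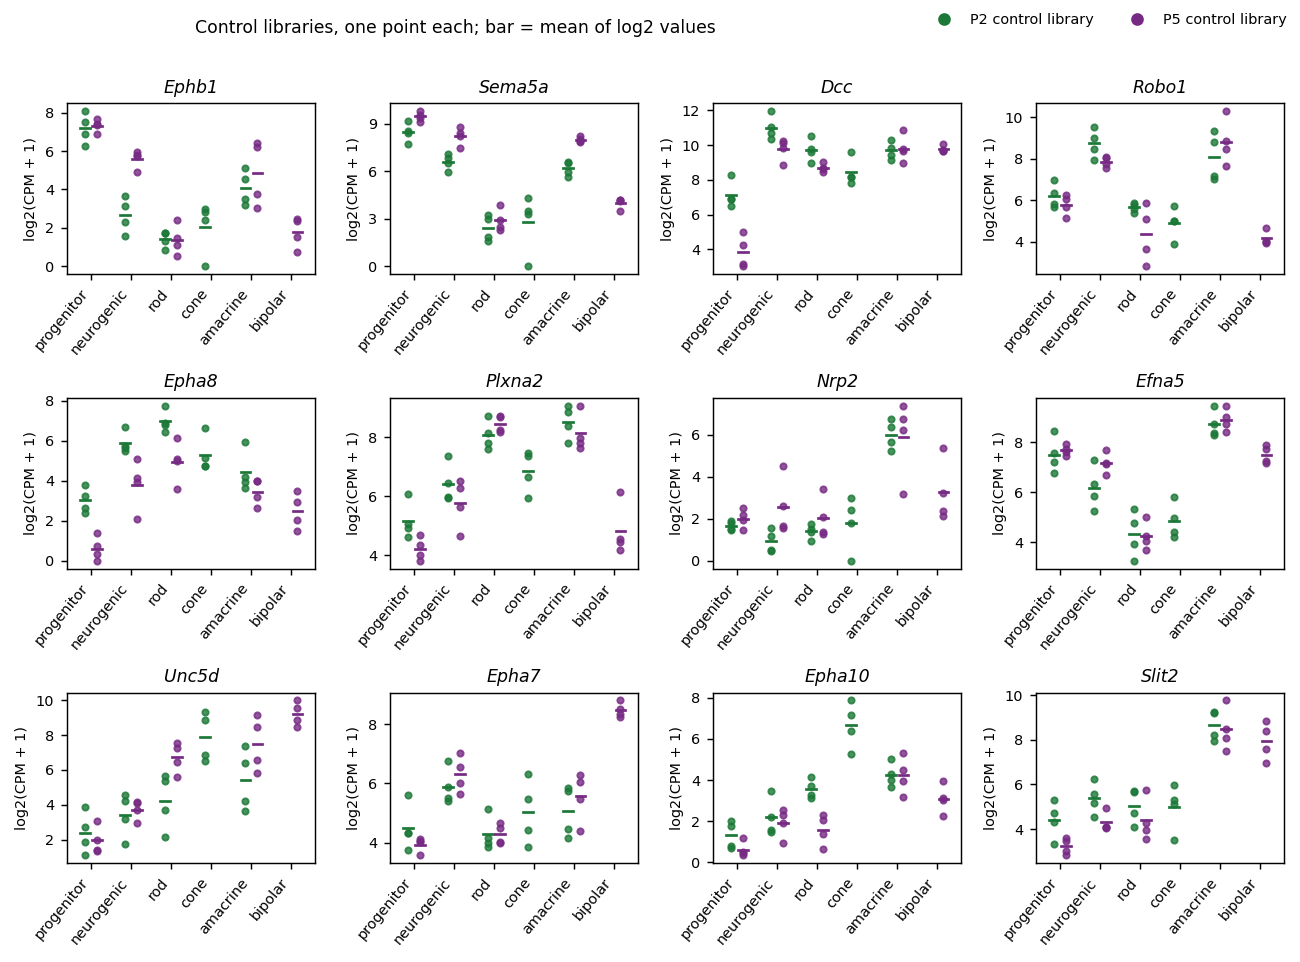
Levels of 12 axon guidance genes in single control libraries, as log2(CPM + 1) on the vertical axis, by cell type on the horizontal axis; green points are P2 libraries, purple points are P5 libraries, and bars are means of the log2 values. Ephb1 and Sema5a are high in progenitors, Dcc and Robo1 in P2 neurogenic cells, Nrp2 and Efna5 in amacrine cells, Unc5d in cones and P5 bipolar cells, Epha10 in cones, and Epha7 in bipolar cells; scales differ between panels.

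Most of the called genes were lower in rods than in neurogenic cells. At P2, 11 of the 63 genes were higher and 23 lower in rods (17.4% of all genes higher and 17.5% lower, 35% called in all), and at P5, 12 were higher and 33 lower (27.2% of all genes higher and 29.3% lower, 56.5% called in all). The median log2 difference of the genes was -0.43 at P2 and -1.21 at P5. Of the 14 Eph receptors, 9 were lower and 1 higher in P5 rods, and 6 of the 8 ephrins were lower and 1 higher.

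Sema5a (-4.40 at P2, -5.54 at P5), Sema3e, a secreted ligand of Plxnd1 (-3.99 and -5.81), Epha4, a receptor for both ephrin classes (-3.80 and -4.31), and Robo1 (-3.16 and -3.47) were lower in rods than in neurogenic cells at both ages, as log2 differences. Epha3, a receptor for class A ephrins, was at 361, 225, 173 and 197 CPM in P2 neurogenic cells and 39.3, 20.8, 24.9 and 30.8 CPM in P2 rods. The lowest neurogenic value was above the highest rod value (log2 difference -3.10 ± 0.31 (SE), adjusted p = 4.65e-09).

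A few receptors went the other way. Plxna2, a plexin that transduces class 6 semaphorins, was at 421, 281, 196 and 225 CPM in P2 rods (mean 281 ± 100.2 CPM (SD, n = 4)) and at 60.6 to 163 CPM in P2 neurogenic cells. Every rod value exceeded every neurogenic value, and the log2 difference was 1.56 ± 0.22 (SE), adjusted p = 1.03e-06 at P2 and 2.60 ± 0.22 (SE), adjusted p = 2.65e-11 at P5. Epha8 was at 85.1, 117, 111 and 214 CPM in P2 rods and 51.9, 48.5, 43.2 and 101 CPM in P2 neurogenic cells. Control 4 was highest in both types, the 2 types overlapped, and the log2 difference within libraries was 1.04 ± 0.26 (SE), adjusted p = 0.00186. Plxna1, another class A plexin, and Robo3 were also higher in P2 rods (log2 differences 1.79 and 1.26), and the repulsive netrin receptor Unc5d was higher in P5 rods (log2 difference 2.86). Robo3 missed the threshold under 5 of 13 alternative settings (adjusted p 5.04e-07 to 0.12) and Epha8 under 1 of 13 (adjusted p 0.000613 to 0.23), the fit without the library block. Here and below such a range spans every alternative run for that gene, which changed the filter, the scaling, the model, the tool or the libraries.

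Amacrine cells, inhibitory interneurons whose processes stratify in the inner retina, held more of the cues and receptors than rods. At P2, 44 of the 63 genes were higher and 8 lower in amacrine cells than in rods (23.7% of all genes higher and 24.2% lower, 47.9% called in all), and at P5, 47 were higher and 7 lower (26.6% of all genes higher and 27% lower, 53.6% called in all). The median log2 difference was 1.48 at P2 and 1.90 at P5, against -0.03 and -0.05 over all genes. Of the 8 ephrins, 7 were higher at each age and none lower; both neuropilins and all 3 Slits were higher at each age. Of the 18 semaphorins, 13 were higher and 3 lower at P2. Against neurogenic cells, amacrine cells were higher for 35 and lower for 13 genes at P2 (19.9% of all genes higher and 19.1% lower, 39% called in all), and higher for 29 and lower for 11 at P5 (22.4% of all genes higher and 24% lower, 46.4% called in all).

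Nrp2, the neuropilin that binds Sema3f, was at 81.1, 106, 36.5 and 49.01 CPM in P2 amacrine cells and 1.59, 1.88, 2.38 and 0.937 CPM in P2 rods. The lowest amacrine value was more than 10 times the highest rod value (log2 difference 5.35 ± 0.51 (SE), adjusted p = 5.79e-10). Efna5, a ligand of class A Eph receptors, was at 701, 425, 312 and 329.96 CPM in P2 amacrine cells and 38.8, 26.3, 14.1 and 8.56 CPM in P2 rods. Control 1 was highest in both, with no overlap (log2 difference 4.42 ± 0.29 (SE), adjusted p = 5.94e-13).

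Slit2, a secreted repellent, was at 608, 588, 297 and 248 CPM in P2 amacrine cells, and its log2 difference from neurogenic cells was 3.21 ± 0.33 (SE), adjusted p = 6.13e-09. Controls 1 and 2 were higher than controls 3 and 4. Epha6, another class A receptor, also had its higher values in controls 1 and 2, at 115, 159.7, 42.7 and 20.1 CPM (log2 difference from rods 3.74 ± 0.51 (SE), adjusted p = 3.94e-07). Epha4, Unc5c and Sema5a completed the 6 genes of mean log2 CPM over 3 with the largest differences from rods at P2, at 4.71, 4.39 and 3.90.

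Some P5 amacrine levels differed widely between control libraries. Sema3a, the founding class 3 repellent, was at 129.97, 124, 5.66 and 1.95 CPM in P5 controls 1 to 4. Controls 1 and 2 were over 20 times as high as controls 3 and 4, and the log2 difference from P5 rods was 4.42 ± 0.65 (SE), adjusted p = 9.4e-07. Nrp2 was at 165, 105, 8.09 and 74.1 CPM in P5 amacrine cells and at 1.399 to 9.53 CPM in P5 rods. The amacrine value of control 3 lay within the range of the rods, and the log2 difference was 4.57 ± 0.48 (SE), adjusted p = 2.25e-09. Which amacrine subtypes each library held was not tested.

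In the other direction, Epha8 (-2.59 at P2 and -1.79 at P5), Epha5 (-1.05 and -1.40), the Nrp2 ligand Sema3f (-1.12 and -0.79) and Plxnb2 (-1.17 and -0.57) were lower in amacrine cells than in rods at both ages, as log2 differences. At P5 Sema3f missed the threshold under 4 of 13 alternative settings (adjusted p 3.02e-07 to 0.151), with a log2 difference of -0.47 (adjusted p = 0.151) without P5 control 2, and Plxnb2 under 2 of 13 (adjusted p 1.53e-06 to 0.0695). Dcc was at similar means in both types at P2 (log2 difference -0.05, adjusted p = 0.889) and higher in amacrine cells at P5 (log2 difference 1.12 ± 0.25 (SE), adjusted p = 0.000413).

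At P2, 5 of the 63 genes were higher and 9 lower in cones than in rods (8.28% of all genes higher and 10.8% lower, 19% called in all), a share near that of all genes. The cone sums were shallower, at 2301709 UMIs over the P2 controls against 57704267 for rods. With P2 control 1 left out, 9 were called, 3 of them higher (1850 of 15234 genes in all were called). Unc5d was at 472, 628, 115 and 89.97 CPM in cones and 48.5, 39.9, 11.9 and 3.48 CPM in rods. Controls 1 and 2 exceeded controls 3 and 4 in both types, and the cone values did not overlap the rod values (log2 difference 3.49 ± 0.51 (SE), adjusted p = 7.43e-06). Epha10, an Eph receptor that lacks kinase activity, was at 144, 234, 81.4 and 38.1 CPM in cones and 7.63, 8.61, 11.9 and 16.9 CPM in rods. Control 4 was lowest among the cone sums and highest among the rod sums, with no overlap between the types (log2 difference 3.22 ± 0.52 (SE), adjusted p = 3.05e-05). Robo2 (-1.95), Epha8 (-1.90), Dcc (-1.46) and Plxna2 (-1.38) were lower in cones, as log2 differences, and Epha8 missed the threshold under 1 of 13 alternative settings (adjusted p 3.78e-05 to 0.0799), the fit without the library block.

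Bipolar cells, the excitatory interneurons that carry photoreceptor signals inward, were compared with rods at P5 only, because P2 control libraries held 81 of them in all. There 33 genes were higher and 12 lower than in rods (25.3% of all genes higher and 25.2% lower, 50.5% called in all), with a median log2 difference of 1.17. Epha7 was at 302, 446, 324 and 364 CPM in bipolar cells and 24.7, 21.4, 15.1 and 15.4 CPM in rods. The 2 types did not overlap (log2 difference 4.35 ± 0.22 (SE), adjusted p = 7.33e-16). Sema3e was at 22.6, 37.5, 16.98 and 21.2 CPM in bipolar cells and at 0.8203, 0.434, 0.0846 and 0.753 CPM in rods (log2 difference 5.52 ± 0.33 (SE), adjusted p = 1.76e-14).

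Epha3 was at 527, 406, 512 and 399 CPM in bipolar cells, the highest of the 5 types at P5. Slit2 was at 122, 459, 339.8 and 191 CPM in bipolar cells and 53.3, 14.8, 18.4 and 10.9 CPM in rods (log2 difference 3.90 ± 0.34 (SE), adjusted p = 5.84e-11). Control 1 was lowest in bipolar cells and highest in rods, and the types did not overlap. Unc5d was at 346, 1021, 471 and 748 CPM in bipolar cells and 154, 189, 46.4 and 88.3 CPM in rods (log2 difference 2.73 ± 0.44 (SE), adjusted p = 3.94e-06).

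Plxna2 was the receptor with the largest difference in favour of rods, at 69.2, 17.3, 22.5 and 20.8 CPM in bipolar cells and 421, 299.9, 287 and 409 CPM in rods. The bipolar value of control 1 stood above the other 3 and was still far below every rod value (log2 difference -3.57 ± 0.23 (SE), adjusted p = 1.1e-13). Epha8, Robo3, Nrp1 and Unc5c were lower in bipolar cells as well, by log2 differences of -2.66, -2.62, -1.60 and -1.04, the last of which missed the threshold under 3 of 13 alternative settings (adjusted p 0.00511 to 0.115).

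Horizontal, starburst and Müller glial cells were too few per library for a test, and their control cells were pooled within an age. The pools were uneven: P2 control 1 gave 29 starburst, 16 horizontal and 40 Müller cells, and P2 control 2 gave 17, 10 and 3. P5 control 3 gave 46 Müller cells. The intervals are exact Poisson intervals at the 95% level and cover counting error only. In the 50 starburst cells of P2 controls Plxna2 was at 859 CPM (95% interval 774 to 952), Sema3a at 311 CPM (95% interval 260.1 to 368) and Sema3d at 86.4 CPM (95% interval 60.8 to 119). The other amacrine cells of the P2 controls had 497 CPM of Plxna2, 14.1 CPM of Sema3a and 0.568 CPM of Sema3d when pooled the same way.

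The 30 cells named horizontal in P2 controls held Plxna4 at 823 CPM (95% interval 704 to 956), Robo1 at 987 CPM (95% interval 856 to 1132), Slit1 at 323 CPM (95% interval 249.96 to 409.6) and Sema6d at 308 CPM (95% interval 237 to 393). Amacrine cells of the same libraries, pooled, had 61.8 CPM of Plxna4 and 17.6 CPM of Slit1. Markers did not bear out that name for every cell. Over all libraries, 28 of the 55 cells had at least 2 UMIs of horizontal markers (Onecut1, Onecut2, Lhx1, Calb1) and not of retinal ganglion markers, 8 had both, 3 had ganglion markers only (Pou4f1, Pou4f2, Slc17a6, Sncg, Rbpms) and 16 had neither. Onecut2 gave 198 UMIs in the 55 cells, Lhx1 71, Calb1 31 and Onecut1 29, and Onecut2 was also found in 7161 of the 13556 amacrine cells, and the 7 amacrine markers summed to 1156 CPM in the 55 cells, 53 of which had a UMI of them. Epha6, at 438 CPM (95% interval 353 to 538) in the P2 control cells, was at 1324 CPM in the 3 cells with ganglion markers only and at 175 CPM in the 28 with horizontal markers only.

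The 59 cells named Müller glia in P2 controls held Sema5a at 169.7 CPM (95% interval 142 to 201) and Plxnd1 at 27.9 CPM (95% interval 17.5 to 42.2), and the 74 of P5 controls held Sema5a at 327 CPM (95% interval 298 to 357). Astrocyte markers were present in this group: of its 221 cells over all libraries, 116 had at least 2 UMIs of Müller markers (Rlbp1, Aqp4, Glul, Slc1a3) only, 81 of both Müller and astrocyte markers (Pax2, Gfap, S100b), 5 of astrocyte markers only and 19 of neither. Progenitors held 3 of the Müller markers at like or higher levels: over all libraries Rlbp1 was at 388 CPM in this group and 739.7 CPM in progenitors, Glul at 286 and 350.4 CPM and Slc1a3 at 698 and 658 CPM. The other genes of the full Müller list were higher in this group. Apoe was at 6005 CPM in it and 3870 CPM in progenitors, Clu at 237 and 49.7 CPM, Gfap at 228 and 1.62 CPM and Aqp4 at 8.08 and 2.57 CPM. Sema6d was at 155 CPM in the 81 cells with both and 175 CPM in the 5 with astrocyte markers only. It was at 9.81 CPM in the 116 with Müller markers only and 15.1 CPM in the 19 with neither. Gfap is also on the full Müller list, so this split does not by itself tell Müller glia from astrocytes.

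Other genes of the pathway were counted from 2 lists. Of 48 intracellular effectors (collapsin response mediators, small GTPases and their exchange factors, kinases and actin regulators), 25 were higher and 10 lower in amacrine cells than in rods at P2 (23.7% and 24.2% of all genes), and 30 higher and 7 lower at P5 (26.6% and 27% of all genes). The chimaerin Chn2, a Rac-inactivating protein, was higher by 3.84 at P2 and 5.18 at P5 on the log2 scale, and Crmp1, a mediator of Sema3a signalling, by 3.72 and 4.66. From neurogenic cells to rods at P5, 7 effectors were higher and 23 lower (27.2% and 29.3% of all genes). Of 31 adhesion molecules and co-receptors tested, 21 were higher and 4 lower in amacrine cells than in rods at P2, and 20 higher and 1 lower at P5, against the same shares of all genes.

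The age comparison set P5 control libraries against P2 control libraries within a type, 4 of each except in cones, where 2 P5 libraries held at least 20 cells. In progenitors 8 of the 59 genes tested rose and 5 fell (10.6% of all genes higher and 6.96% lower, 17.5% called in all). In neurogenic cells 11 of 58 rose and 7 fell (6.67% of all genes higher and 2.6% lower, 9.27% called in all). In rods 2 of 54 rose and 14 fell (7.24% of all genes higher and 5.94% lower, 13.2% called in all), in amacrine cells 2 of 57 rose and none fell (0.351% of all genes higher and 0.0458% lower, 0.397% called in all), and in cones none of 15 was called (0.0513% of all genes called; 0 at an unadjusted p under 0.05, which 8.71% of all genes met, and 0 by DESeq2, which gave an adjusted p for 1 of them). The genes called in the same direction in at least 2 types were Unc5c, Nrp1, Sema3e, Sema4a and Sema5a, which rose, and Dcc, Epha8, Robo3, Slit2, Robo2 and Efna2, which fell.

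The sequences before the start sites of 4 of these genes are shown because the genes passed the age test in more than 1 type: the receptor Epha8 and the repellent Slit2, which fell, and the semaphorins Sema3e and Sema5a, which rose. They are RefSeq sequences of GRCm38.p6, 5′ to 3′ on the gene's strand, and end where the gene begins in GENCODE. For Epha8 and Sema3e the RefSeq start is the same, and 250 bases are shown. For Slit2 and Sema5a the RefSeq start lies further downstream, and the stretches were cut to 233 and 247 bases. Capitals mark matches to the nuclear factor I half-site, the only one of 4 searched motifs found in them. Epha8 lies on the minus strand (chr4:136956817-136957066), and Slit2 (chr5:47982905-47983137), Sema3e (chr5:14025026-14025275) and Sema5a (chr15:32244563-32244809) lie on the plus strand.
Epha8: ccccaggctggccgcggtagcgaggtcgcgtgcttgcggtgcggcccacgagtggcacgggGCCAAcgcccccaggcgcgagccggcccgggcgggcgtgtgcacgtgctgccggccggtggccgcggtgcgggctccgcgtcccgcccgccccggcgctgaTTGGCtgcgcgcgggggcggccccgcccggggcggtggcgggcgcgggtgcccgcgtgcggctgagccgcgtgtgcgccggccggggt
Slit2: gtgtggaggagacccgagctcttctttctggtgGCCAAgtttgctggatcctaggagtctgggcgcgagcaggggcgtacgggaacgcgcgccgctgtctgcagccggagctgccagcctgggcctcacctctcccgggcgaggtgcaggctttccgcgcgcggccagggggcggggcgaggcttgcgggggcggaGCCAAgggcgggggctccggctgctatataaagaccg
Sema3e: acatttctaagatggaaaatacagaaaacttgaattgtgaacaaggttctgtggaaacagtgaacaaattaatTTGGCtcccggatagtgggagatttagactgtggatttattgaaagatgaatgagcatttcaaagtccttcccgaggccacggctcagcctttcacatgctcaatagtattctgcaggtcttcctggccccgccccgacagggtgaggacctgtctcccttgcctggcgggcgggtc
Sema5a: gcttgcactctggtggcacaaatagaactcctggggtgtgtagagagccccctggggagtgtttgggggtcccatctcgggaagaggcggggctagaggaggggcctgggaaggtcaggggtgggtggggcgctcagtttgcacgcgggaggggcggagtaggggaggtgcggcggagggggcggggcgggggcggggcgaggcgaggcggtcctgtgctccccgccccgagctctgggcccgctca

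The motifs searched on both strands were a MEIS core (TGACAG), a CRX core (TAATCC), an E-box (CAGCTG) and the NFI half-site (TTGGC). In the 250 bases before the start of all 32851 RefSeq promoters, 15.9% held the MEIS core, 6.25% the CRX core, 13.0% the E-box and 41.5% the NFI half-site. Of the 74 promoters found for 58 of the guidance genes, 14.9% held the MEIS core, 2.70% the CRX core, 16.2% the E-box and 36.5% the NFI half-site. The stretch before Epha8 held 2 NFI half-sites, that of Slit2 held 2 and that of Sema3e held 1. GC content was 84% before Epha8, 70.4% before Slit2, 48% before Sema3e and 71.7% before Sema5a.

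Among receptors, Unc5c and Nrp1 rose in progenitors. Unc5c was at 181, 134, 67.5 and 124 CPM in P2 and 397, 445, 397 and 472 CPM in P5 progenitors of controls 1 to 4. The ages did not overlap (log2 change 1.79 ± 0.29 (SE), adjusted p = 0.000546). Nrp1 was at 97.03, 52.6, 46.3 and 67.4 CPM at P2 and 142, 155, 198 and 204 CPM at P5, again without overlap (log2 change 1.42 ± 0.20 (SE), adjusted p = 0.000202).

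Among ligands in progenitors, Sema3e was at 16.7, 9.75, 7.21 and 8.69 CPM in P2 progenitors and 30.8, 32.5, 20.8 and 25.6 CPM in P5 progenitors. Its lowest P5 value was above its highest P2 value (log2 change 1.40 ± 0.27 (SE), adjusted p = 0.00221). The semaphorin Sema5a rose by 0.98 and the ephrin Efna1 by 1.10 on the log2 scale (adjusted p = 0.0141 and 0.0302), and the receptor Epha4 by 0.75 (adjusted p = 0.049). Efna1 missed the threshold under 4 of 17 alternative settings (adjusted p 0.00951 to 0.0907) and Epha4 under 10 of 17 (adjusted p 0.00124 to 0.177). Sema5a values of P2 control 1 and P5 control 1 were close, at 577 and 556 CPM.

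Dcc fell in progenitors, from a mean of 158 ± 100.3 CPM (SD, n = 4) to 16.1 ± 11.3 CPM (SD, n = 4) (log2 change -3.24 ± 0.72 (SE), adjusted p = 0.00603). All 4 P5 values were below all 4 P2 values. Epha8 was at 8.45, 5.28, 4.33 and 12.97 CPM at P2 and 0.651, 0.247, 1.65 and 0 CPM at P5 (log2 change -3.35 ± 0.83 (SE), adjusted p = 0.011). Slit2 was at 39.1, 25.2, 18.9 and 9.07 CPM at P2 and 11.3, 6.05, 9.89 and 7.17 CPM at P5, and P2 control 4 lay within the P5 range (log2 change -1.39 ± 0.46 (SE), adjusted p = 0.0473). This Slit2 call was lost under 9 of 17 alternative settings (adjusted p 0.0182 to 0.127), among them leaving out any 1 control library but P2 control 4. Robo3 was at 8.82, 6.29, 6.29 and 0.881 CPM at P2 and 0.868, 0.3702, 0.2602 and 0.935 CPM at P5, where P2 control 4 also lay within the P5 range (log2 change -3.37 ± 0.86 (SE), adjusted p = 0.0135).

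**Figure D3:**
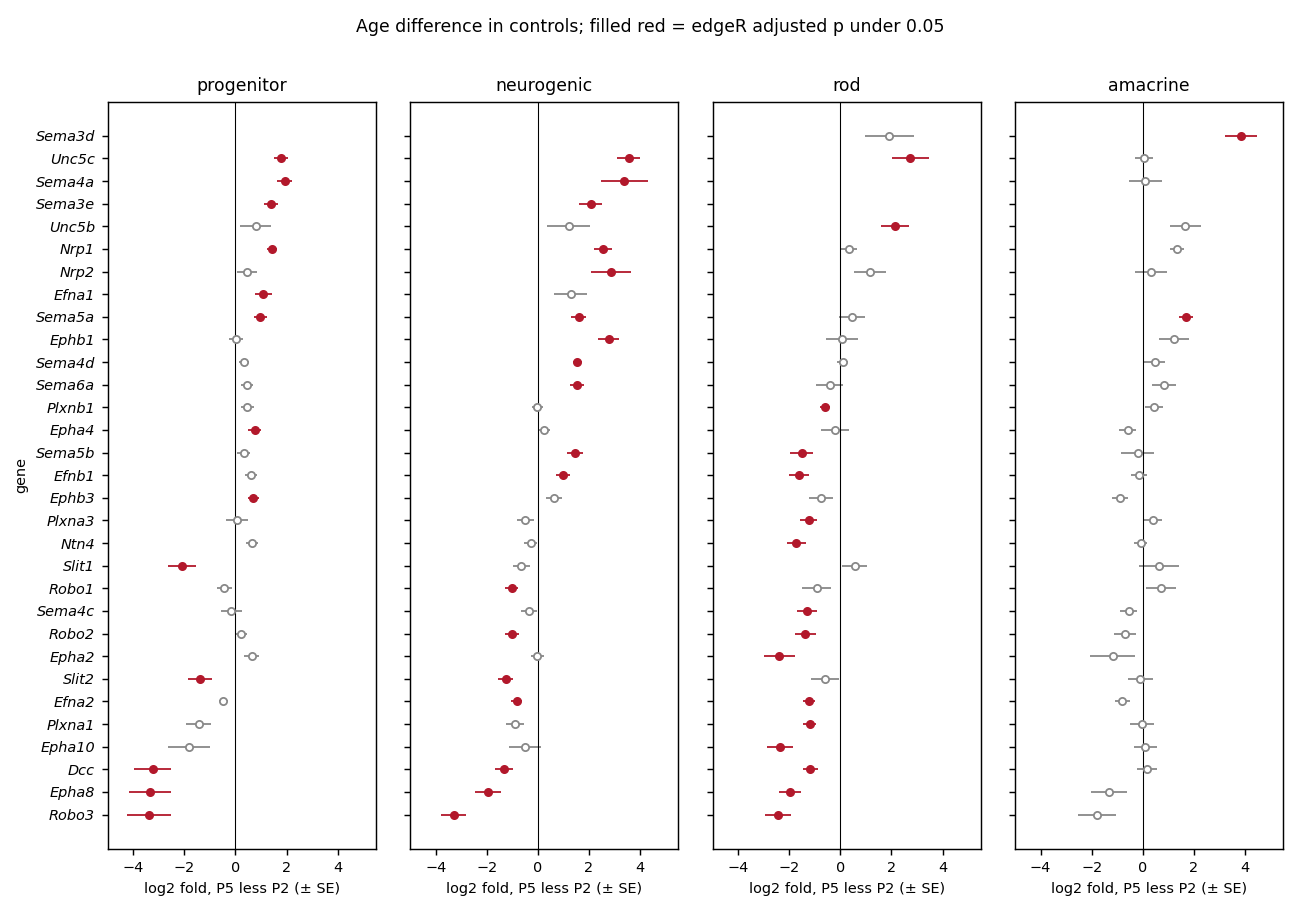
Age difference in control libraries (P5 less P2, 4 libraries each) as log2 fold change with its standard error on the horizontal axis, for the 31 axon guidance genes (vertical axis) called in at least 1 of 4 cell types; filled red points passed an adjusted p under 0.05 and a missing point was not tested. Unc5c rises in 3 types, from 1.79 in progenitors to 3.55 in neurogenic cells, Robo3 is at -2.46 in rods, -3.29 in neurogenic cells and -3.37 in progenitors, and amacrine cells have 2 red points.

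In neurogenic cells the receptors Unc5c, Ephb1 and Nrp1 rose. Unc5c went from 18.2, 17.5, 8.79 and 7.47 CPM at P2 to 109.9, 218, 142 and 171 CPM at P5, without overlap (log2 change 3.55 ± 0.46 (SE), adjusted p = 6.1e-05). Ephb1 went from 7.69, 1.99, 3.996 and 11.6 CPM to 29.3, 60.5, 54.04 and 53.2 CPM (log2 change 2.78 ± 0.41 (SE), adjusted p = 0.000234). Nrp1 went from 21.1, 7.95, 8.39 and 9.004 CPM to 36.5, 92.2, 84.1 and 88.7 CPM, and at each age control 1 stood apart from the other 3, as the high value at P2 and the low value at P5 (log2 change 2.55 ± 0.34 (SE), adjusted p = 8.24e-05).

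The semaphorins Sema3e, Sema5a, Sema4d, Sema4a, Sema5b and Sema6a rose in neurogenic cells, 6 of 17 tested, and none fell. Of all genes, 6.67% rose and 2.6% fell in these cells. Sema3e was at 10.1, 7.15, 5.19 and 3.07 CPM at P2 and 16.7, 42.7, 25.2 and 32.2 CPM at P5 (log2 change 2.07 ± 0.45 (SE), adjusted p = 0.00547). Sema6a, a ligand of Plxna2 and Plxna4, was at 120.1, 71.1, 55.1 and 70.7 CPM at P2 and 419, 201, 173 and 162 CPM at P5, where control 1 was at more than 2 times each of the others (log2 change 1.53 ± 0.27 (SE), adjusted p = 0.00107).

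All 3 measured Robo receptors fell in neurogenic cells, where 2.6% of all genes fell. The log2 changes were -3.29 for Robo3, -1.03 for Robo1 and -1.02 for Robo2. Robo3 was at 23.8, 17.9, 21.2 and 9.88 CPM at P2 and 2.82, 2.16, 1.505 and 1.22 CPM at P5 (adjusted p = 0.000234). Slit2, a ligand of Robo1 and Robo2, was at 74.4, 46.5, 35.2 and 22.6 CPM at P2 and 30.2, 15.7, 16.3 and 16.1 CPM at P5 (log2 change -1.26 ± 0.29 (SE), adjusted p = 0.00736). Dcc and Epha8 fell as well, with log2 changes of -1.33 and -1.97 (adjusted p = 0.0199 and 0.0184). Without the 7 libraries in doubt, Robo1 (log2 change -0.69, adjusted p = 0.0896) and Robo2 (log2 change -0.65, adjusted p = 0.115) did not pass the edgeR test here. Over the alternative settings Robo2 missed the threshold in 7 of 17 (adjusted p 0.000448 to 0.115), Epha8 in 2 of 17 (adjusted p 0.000952 to 0.0708) and Dcc in 2 of 17 (adjusted p 0.000348 to 0.0724).

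Markers of other cells moved with age in these types. The summed Müller glia list (Rlbp1, Glul, Aqp4, Apoe, Clu, Slc1a3, Gfap) was at 1100.3 to 3208 CPM in P2 and 8942 to 16532 CPM in P5 control progenitors, and at 404 to 614 and 2612 to 4423 CPM in neurogenic cells. Every P5 progenitor value lay above the 6802 CPM of the control cells named Müller glia, pooled over both ages. Apoe gave most of this sum, over all libraries 3870 of 5672 CPM in progenitors and 6005 of 7849 CPM in Müller glia. Gfap, Clu and Aqp4 were lower in progenitors than in Müller glia. The 7 progenitor markers named above summed to 406 to 1222 CPM in P2 and 478 to 1948 CPM in P5 neurogenic cells. The neurogenic list in progenitors was at 977 to 1158 CPM at P2 and 305 to 1245 CPM at P5. Median UMIs per control progenitor were 8318 at P2 and 15995 at P5. The 8 bipolar markers summed to 805 to 1711 CPM in P2 and 871 to 1228 CPM in P5 neurogenic cells, which overlapped. The part of these in the age results was not tested.

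In rods most changes were falls. Robo3 was at 54.8, 70.6, 65.5 and 12.98 CPM in P2 rods and 6.18, 7.81, 11.5 and 13.6 CPM in P5 rods. P2 control 4 stood below the other 3 P2 values and within the P5 range (log2 change -2.46 ± 0.51 (SE), adjusted p = 0.00439). Epha8 was at 85.1, 117, 111 and 214 CPM at P2 and 33.3, 10.95, 68.7 and 30.99 CPM at P5, without overlap (log2 change -1.97 ± 0.44 (SE), adjusted p = 0.00693). Efnb1, Sema5b, Robo2 and Sema4c fell too, with log2 changes of -1.63, -1.52, -1.37 and -1.31. Robo2 missed the threshold under 10 of 17 alternative settings (adjusted p 0.000882 to 0.266), Sema4c under 7 of 17 (adjusted p 0.0108 to 0.128), Sema5b under 6 of 17 (adjusted p 0.00131 to 0.245) and Efnb1 under 1 of 17 (adjusted p 0.000602 to 0.0739). Without the 7 libraries in doubt the log2 changes were -1.67 (adjusted p = 0.0739) for Efnb1, -0.96 (adjusted p = 0.245) for Sema5b and -0.97 (adjusted p = 0.266) for Robo2. The 5 rod markers named above summed to 1303 to 3014 CPM in P2 and 5919 to 9675 CPM in P5 rods, without overlap, and their part in these changes was not tested.

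The 2 genes that rose in rods were netrin receptors. Unc5c was at 13.4, 15.96, 4.76 and 1.204 CPM at P2 and 84.2, 101, 20.2 and 41.7 CPM at P5, and all P5 values were above all P2 values (log2 change 2.74 ± 0.72 (SE), adjusted p = 0.0188). Unc5b, also known as a vascular netrin receptor, rose by 2.15 (adjusted p = 0.0155), and its log2 change was 1.19 (adjusted p = 0.0874) without P5 control 1. Unc5c missed the threshold under 2 of 17 alternative settings (adjusted p 0.00694 to 0.0621), without P2 control 3 and without P5 control 2. Leaving out P5 control 2 reduced the calls in rods from 16 to 10, with 1124 of 14697 genes in all called against 1949 of 14786 with it.

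Amacrine cells had 2 calls with age, both semaphorins. Sema5a was at 89.1, 62.2, 49.4 and 96.5 CPM at P2 and 260.2, 226, 235 and 296 CPM at P5 (log2 change 1.69 ± 0.26 (SE), adjusted p = 0.00944). Sema3d was at 0.497, 1.49, 1.12 and 0.304 CPM at P2 and 19.5, 7.02, 7.28 and 10.7 CPM at P5 (log2 change 3.83 ± 0.62 (SE), adjusted p = 0.0104). Neither gene overlapped between the ages. With the control libraries fitted alone the log2 changes were 1.71 (adjusted p = 0.063) for Sema5a and 3.90 (adjusted p = 0.0578) for Sema3d, and without the 7 libraries in doubt they were 1.75 (adjusted p = 0.116) and 2.97 (adjusted p = 0.225), so that neither passed the test there. Leaving out P2 control 1 left 1 call (8 of 12769 genes in all), and leaving out P5 control 1 gave 4 (48 of 12726). In amacrine cells the 5 rod markers summed to 255 to 423 CPM at P2 and 394 to 1271 CPM at P5, and the amacrine markers to 1997 to 2799.6 and 1474 to 2062 CPM; their part in these calls was not tested.

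Of the effectors inside the cell, 12 of 48 rose and 1 fell in progenitors (10.6% and 6.96% of all genes). In neurogenic cells 3 of 45 rose and none fell (6.67% and 2.6% of all genes), and in rods 3 of 48 rose and 13 fell (7.24% and 5.94% of all genes). The single fall in progenitors was Crmp1 (log2 change -2.77 ± 0.59, adjusted p = 0.0045), and Ablim3, an actin-binding protein, had the largest rise there (2.43 ± 0.57, adjusted p = 0.00807). Of the adhesion list, 7 of 30 rose and 4 fell in progenitors (10.6% and 6.96% of all genes) and 7 of 30 rose and 3 fell in neurogenic cells (6.67% and 2.6% of all genes). Boc and Met, a co-receptor for Shh and the receptor for Hgf, rose in both, and Stmn2, a growth cone protein, fell in both.

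The difference between 2 types was itself compared between ages. From P2 to P5 the step from progenitor to neurogenic cell grew more positive for 6 of 63 genes and for none more negative (2.83% of all genes higher and 1.32% lower, 4.15% called in all): Ephb1 by 2.76, Dcc by 1.97, Unc5c by 1.85, Sema4d by 1.17, Nrp1 by 1.14 and Efnb2 by 1.05 on the log2 scale. For Dcc the step widened, and for the other 5 the neurogenic cells came closer to the progenitors. The count was 3 without P2 control 1 (266 of 15234 genes in all), 2 without P2 control 3 (294 of 15531) and 2 without P5 control 2 (324 of 15062). It was 10 without P5 control 3 (1210 of 15215) and 3 without P5 control 4 (338 of 15463). Of the 6, Sema4d missed the threshold under 7 of 17 alternative settings (adjusted p 4.83e-08 to 0.23), Unc5c under 6 of 17 (adjusted p 0.000175 to 0.338), Nrp1 under 6 of 17 (adjusted p 0.000746 to 0.335), Ephb1 under 4 of 17 (adjusted p 1.07e-09 to 0.0875), Efnb2 under 2 of 17 (adjusted p 0.000474 to 0.387) and Dcc under 1 of 17 (adjusted p 3.46e-06 to 0.221).

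The step from neurogenic cell to rod changed for 19 genes (4.63% of all genes higher and 8.22% lower, 12.9% called in all), with 17 more negative at P5, led by Sema5b (-3.20), Ephb1 (-2.85), Efnb1 (-2.58), Epha2 (-2.33), Nrp1 (-2.19) and Sema6a (-2.06). The step was more positive at P5 for Unc5d (2.13) and Plxna2 (1.03). The count was 11 without P2 control 1 (1318 of 15234 genes in all), 12 without P2 control 3 (1405 of 15531) and 11 without P5 control 2 (1121 of 15062). All of these guidance genes were more negative, so that neither Unc5d nor Plxna2 was called in these fits. Unc5d missed the threshold under 9 of 17 alternative settings (adjusted p 0.000814 to 0.338), Plxna2 under 4 of 17 (adjusted p 0.00251 to 0.464), Ephb1 under 7 of 17 (adjusted p 8.42e-07 to 0.181) and Sema6a under 1 of 17 (adjusted p 1.09e-07 to 0.09).

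The difference of amacrine cells less rods was more positive at P5 for 9 genes and more negative for 1, Unc5c (-2.66; 4.01% of all genes higher and 2.94% lower, 6.95% called in all). Among the 9 were Epha10 (2.37), Sema5b (1.65), Ntn4 (1.57), Efnb1 (1.43), Sema4g (1.39) and Dcc (1.17). For Unc5c the difference in favour of amacrine cells went from 4.39 at P2 to 1.74 at P5, and for Sema5b the difference in favour of rods went from -2.26 to -0.61 (adjusted p at P5 = 0.176), so that for each the types came closer. Dcc missed the threshold under 13 of 17 alternative settings (adjusted p 0.0122 to 0.406), Epha10 under 10 of 17 (adjusted p 0.00454 to 0.174), Sema5b under 9 of 17 (adjusted p 0.000207 to 0.48), Efnb1 under 4 of 17 (adjusted p 4.31e-05 to 0.109), Sema4g under 3 of 17 (adjusted p 9.01e-09 to 0.115) and Ntn4 under 1 of 17 (adjusted p 1.02e-05 to 0.0542). For Sema5b the change was 1.01 (adjusted p = 0.48) without the 7 libraries in doubt and 1.05 (adjusted p = 0.365) without P5 control 1. Leaving out 1 control library gave counts from 5 to 16. The count was 5 without P2 control 1 (751 of 15234 genes in all) or P5 control 4 (619 of 15463). It was 16 without P5 control 3 (1646 of 15215) and 6 without P2 control 3 (510 of 15531).

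The construct comparison asked whether expression differed with MEIS1, MEIS2 or both, comparing the average over 3 construct groups with the controls of that type and age. In edgeR no guidance gene was called in progenitors, neurogenic cells, rods or amacrine cells at either age, or in bipolar cells at P5; of all genes, 0.0135% and 0.0202% were called in P2 and P5 progenitors, 0% and 0.00728% in neurogenic cells, 0% and 0% in rods, 0% and 0% in amacrine cells and 0.00748% in bipolar cells. At an unadjusted p under 0.05 there were 3 of 59 in P2 progenitors (9.14% of all genes) and 0 in P5 progenitors (1.91%). In neurogenic cells there were 3 of 58 (10.7% of all genes) and 0 (1.64%), and in rods 5 of 54 (10.9%) and 1 (0.724%). In amacrine cells there were 4 of 57 (4.15% of all genes) and 1 (1.24%), and in bipolar cells 2 of 54 (3.63%). DESeq2 also called 0 in each, though it gave an adjusted p for 16 or 17 of the genes only in P2 progenitors, neurogenic cells and rods. None of the 4 tests of a MEIS effect that differs between ages called a guidance gene either (0% of all genes in each). At an unadjusted p under 0.05 there was 1 in progenitors (2.23% of all genes), 1 in neurogenic cells (2.44%), 1 in rods (2.25%) and 0 in amacrine cells (0.954%), and DESeq2 called 0.

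**Figure D4:**
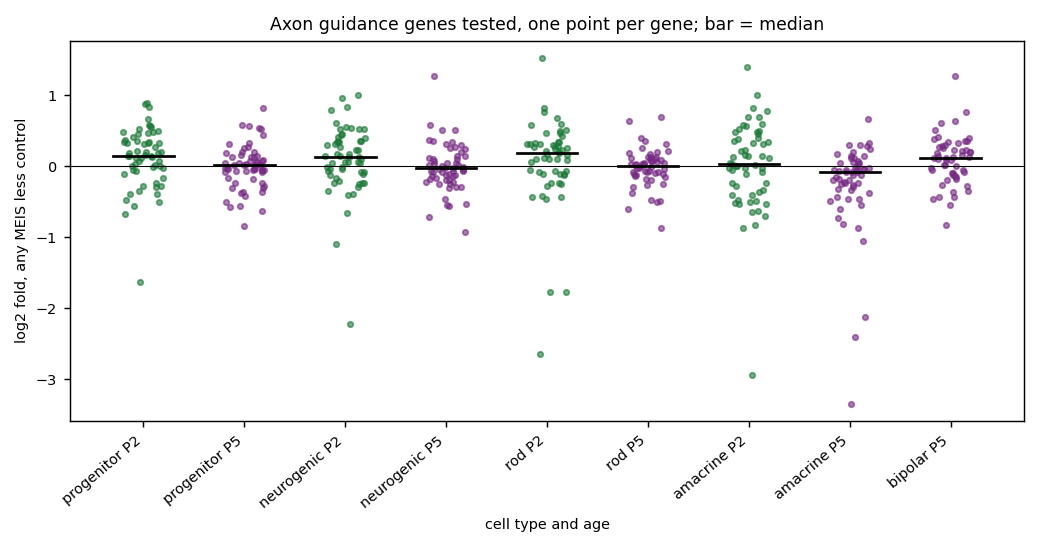
Log2 fold change of any MEIS construct less control (vertical axis) for the guidance genes tested in each cell type and age (horizontal axis), 1 point per gene, with the median as a bar; green is P2 and purple is P5. Medians lie from -0.08 to 0.18, and 58 of the 59 progenitor genes at P2 and all 59 at P5 lie within 1 log2 unit of 0; none passed an adjusted p under 0.05.

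The point estimates were mostly small. In P2 progenitors they ran from -1.63 to 0.88 with a median of 0.15, and in P5 progenitors from -0.85 to 0.82 with a median of 0.01. The lowest unadjusted p values in P2 progenitors were those of Ephb2, at a log2 difference of 0.49 (adjusted p = 0.49), and Sema3c, at -1.63 (adjusted p = 0.494). Ephb2, a receptor for class B ephrins, was at 121, 80.001, 50.2 and 61.1 CPM in the controls. It was at 117 and 87.5 CPM with MEIS1, 131 and 99.9 CPM with MEIS2 and 184 and 122 CPM with both. Control 1 lay within the range of the construct libraries.

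Sema3c, a secreted ligand of the neuropilins, had the most negative estimate at P2 in progenitors, neurogenic cells, rods and amacrine cells. Its level in P2 controls 1 to 4 was 0.834, 10.2, 34.04 and 6.29 CPM in rods and 1.03, 7.08, 27.9 and 3.96 CPM in amacrine cells. Control 3 was highest in both, and the estimates over all P2 libraries were -2.64 in rods (adjusted p = 0.329) and -2.94 in amacrine cells (adjusted p = 0.988). In P2 amacrine cells the lowest p was that of Unc5c (log2 difference 1.00, adjusted p = 0.988).

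In P2 neurogenic cells the count depended on the libraries. It was 2 without P2 control 1, where 513 of 13681 genes in all were called against 0 with it. It was 1 without P2 MEIS2 library 1 (683 of 14613 genes in all) and 6 of 60 without the 7 libraries in doubt (928 of 14694 genes in all), 5 of these higher with a construct. With groups read from the barcode starts it was 2 (1053 of 13745 genes in all), and it was then 1 in P2 progenitors (414 of 14849) and 3 in P2 rods (285 of 14786).

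Single constructs were compared with control in progenitors, 2 libraries against 4. No guidance gene was called by edgeR in the 6 comparisons, where 0.00673%, 0.0404% and 0.0135% of all genes were called at P2 and 0.00673%, 0.00673% and 0.0135% at P5. At an unadjusted p under 0.05 there were 0 for P2 MEIS1 (1.03% of all genes), 9 for P2 MEIS2 (15.9%) and 1 for the P2 combination (2.65%). At P5 there were 1 for MEIS1 (1.6% of all genes), 2 for MEIS2 (3.44%) and 2 for the combination (3.92%). DESeq2 called 2 of the 28 guidance genes that had an adjusted p for P2 MEIS2, where it called 539 of 7651 genes in all, and 0 in the other 5. The 2 P2 MEIS2 libraries differed from each other: Dcc was at 98.2 and 627 CPM, Epha8 at 2.33 and 56.9 CPM, Robo3 at 2.33 and 18.5 CPM and Unc5c at 162 and 478 CPM. Library 2 had the highest value of all 10 P2 libraries for each of these 4 genes, and it was the library with a median of 992 UMIs per cell. Without library 1, so that library 2 stood alone for the group and was assumed to vary like the others, 10 guidance genes were called higher, with 2557 of 15983 genes in all called.

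**Figure D5:**
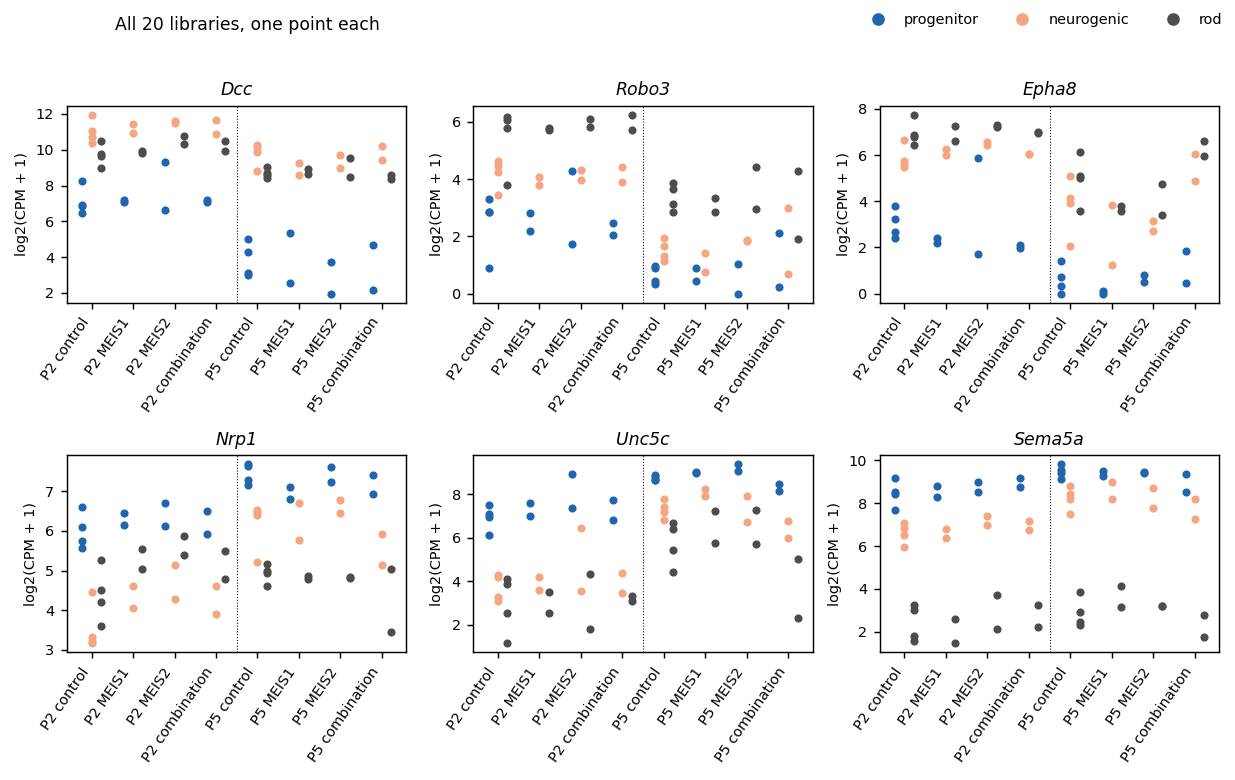
Levels of 6 guidance genes as log2(CPM + 1) on the vertical axis in each of the 20 libraries, by group on the horizontal axis, for progenitors (blue), neurogenic cells (orange) and rods (grey), with P2 left and P5 right of the dotted line. Dcc, Robo3 and Epha8 sit lower in progenitors of the P5 control libraries than of the P2 controls, and Unc5c and Nrp1 sit higher, and single points such as P2 MEIS2 library 2 in progenitors, at 627 CPM for Dcc, stand apart.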

How the data were processed

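Gene expression was measured in GFP-sorted cells of retinal explants with 10x 3′ chemistry. The authors deposited UMI counts of each gene in each cell without normalization. All are whole numbers, and each of the 79009 cells sums to the total in the authors' cell table. The deposited cell table also gives the authors' cell types and the percent of mitochondrial UMIs. Reads went through Cell Ranger and Seurat 5 on mm10, per the submitters' processing notes, with a GFP locus added per the series' design text; filters on cells are not given in the sources used here. Deposited cells had 501 to 46192 UMIs.

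Counts were summed per library and type (at least 20 cells) and tested across libraries in edgeR 4.0.16 (R 4.3.3) by the two-sided quasi-likelihood test, with filterByExpr and TMM and p adjusted over all genes. Type contrasts used the 8 control libraries with the library as a block. Age and MEIS contrasts used 1 mean for each of 8 groups. Levels are CPM of the summed counts without TMM, and fold changes come from the fits. The code was tested on simulated data. Named genes are up to 6 called genes per direction with the largest change at a mean log2 CPM of at least 3, the 2 lowest p values of a MEIS contrast without a call, and a list of 28 guidance genes. Where fewer than 6 genes were called, all were named at any level, such as Sema3d in amacrine cells. Other genes below that level and off the list of 28 (such as Robo3 and Epha8 in progenitors) were named after their values were seen. The genes given for the rare types, some of them on that list, were also picked after their values were seen. The guidance genes and the lists of effectors, adhesion molecules and markers were chosen with earlier results of these data known. Alternatives included DESeq2 1.42.0 and cells without Scrublet doublets (scanpy 1.11.5). Doublets were kept in the results above. Scrublet called 0 of 4712 cells in P2 control 2 and 1 of 6292 in P5 control 1, so it did not work in every library. The highest share was in P2 control 1, with 2003 of 17739 cells called (11.3%). Some progenitor and rod markers are not reported here. No per-sample columns were left unmapped. Positions of genes are those of GENCODE release 21 on mm10.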

Additional observations from a re-analysis of the deposited data

Results flagged for a closer look

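An outlying library was looked for in 78 groups of 4 control libraries, most of them with values given above. The groups share 8 libraries and are not independent of each other. For normally distributed values chance gives about 1 in 20, and the distribution of these CPM was not tested. In 7 groups 1 library lay far from the other 3. These were Dcc in P2 progenitors (306.9 CPM in control 1), Nrp1 in P2 neurogenic cells (21.1 CPM in control 1) and in P5 neurogenic cells (36.5 CPM in control 1), Epha8 in P2 neurogenic cells (100.6 CPM in control 4), Sema6a in P5 neurogenic cells (419 CPM in control 1), Slit2 in P5 neurogenic cells (30.2 CPM in control 1) and Plxna2 in P5 bipolar cells (69.2 CPM in control 1). P2 control 1 holds the most UMIs of all libraries, and its barcodes carry a combination name. P5 control 1, the library flagged for Nrp1, Sema6a, Slit2 and Plxna2 at P5, had a median mitochondrial share of 9.95%, the highest of the controls. Both are among the 7 libraries in doubt, and the part of these traits in the flagged values was not tested.

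For some genes the difference between 2 cell types itself differed between P2 and P5 by the interaction test in edgeR. Given here as log2 values are the called genes that the naming rule takes, up to 6 per direction, and not all called genes. Between amacrine cells and rods they were Epha10 (2.37), Sema5b (1.65), Ntn4 (1.57), Efnb1 (1.43), Sema4g (1.39), Dcc (1.17) and Unc5c (-2.66). Between neurogenic cells and progenitors they were Ephb1 (2.76), Dcc (1.97), Unc5c (1.85), Sema4d (1.17), Nrp1 (1.14) and Efnb2 (1.05). Between rods and neurogenic cells they were Unc5d (2.13), Plxna2 (1.03), Sema5b (-3.20), Ephb1 (-2.85), Efnb1 (-2.58), Epha2 (-2.33), Nrp1 (-2.19) and Sema6a (-2.06).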

How the results depend on the processing

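Of 638 counts of called genes under an alternative setting, 598 were within 1.5 times the value above and 40 were not, and of 2375 values of single genes none changed direction and 200 lost the call. Without the library block the counts were 21 for P2 rod less neurogenic (2892 of 15121 genes in all) and 9 for P2 cone less rod (1466 of 15121). Between ages they were 1 for amacrine less rod (174 of 15121), 0 for neurogenic less progenitor (123 of 15121) and 7 for rod less neurogenic (595 of 15121). With all 20 libraries in the type fit the same 3 comparisons between ages gave 25, 20 and 30, with 4052, 3574 and 4818 of 16431 genes in all called. With groups read from the barcode starts there were 9 calls for P2 cone less rod (1968 of 15278 genes in all). With any MEIS at P2 there were then 1 in progenitors (414 of 14849), 2 in neurogenic cells (1053 of 13745) and 3 in rods (285 of 14786), and 1 for P2 MEIS2 in progenitors (186 of 14849). DESeq2 gave 2 for P2 MEIS2 in progenitors (539 of 7651 genes in all). Fitting control libraries alone gave 0 for age in amacrine cells (7 of 11683 genes in all), and no filter on low counts gave 1 for age in cones (48 of 16998). Without the 7 libraries in doubt, a setting added after the data were seen, the counts were 8 for P2 cone less rod, 3 for neurogenic less progenitor between ages, 6 for any MEIS in P2 neurogenic cells and 0 for age in amacrine cells.

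Leaving out each library in turn gave 9 to 14 for P2 cone less rod, 5 to 16 for amacrine less rod between ages, 2 to 10 for neurogenic less progenitor between ages, 11 to 21 for rod less neurogenic between ages, 0 to 1 for any MEIS in P2 progenitors, 0 to 10 for P2 MEIS2 in progenitors, 0 to 2 for any MEIS in P2 neurogenic cells, 10 to 17 for age in rods and 1 to 4 for age in amacrine cells. Calls over all genes moved too, such as 1646 of 15215 without P5 control 3 and 510 of 15531 without P2 control 3 for amacrine less rod between ages. Without P5 control 2 they were 1121 of 15062 for rod less neurogenic between ages, against 2000 of 15562 with it. For age in rods they were then 1124 of 14697, against 1949 of 14786 with it. Without the 7 libraries in doubt they were 1655 of 15073 for P2 cone less rod, 253 of 15073 for neurogenic less progenitor between ages and 4 of 13835 for age in amacrine cells. The cause of these shifts was not tested.

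The replicate block moved no count of called guidance genes by over 1.5 times. Calls over all genes with the block are not given here. Same-numbered libraries correlated from -0.23 to 0.45 in progenitors and from -0.16 to 0.61 in rods within an age, and same-numbered controls of the 2 ages from 0.09 to 0.29 and from 0.05 to 0.32. No label says that a number marks a shared animal, litter or day, so the samples were not treated as paired. The correlations cannot decide on pairing, because libraries of different number were not compared. Between groups of 2 libraries both numbers also give the same value by construction. The numbers are those of the titles. Barcode starts give another number for P2 combination 1, P2 controls 2, 3 and 4 and every P5 control. These correlations and the replicate block therefore depend on following the titles. In some groups same-numbered libraries did deviate together. In P5 rods the values were 0.61 and 0.14 for control with MEIS1, 0.57 and 0.15 for control with MEIS2 and 0.60 for MEIS1 with MEIS2. In P2 progenitors they were 0.44 and 0.33 for control with combination and -0.19 and -0.15 for control with MEIS2. With the block no guidance gene was called in any MEIS comparison either. The age test in cones could not be fitted with at least 50 cells per sum. Low counts limit the rare types and genes such as Ntn1 and Robo4.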
